A study of Mus musculus with 117 samples.

Results

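The late step of the border-forming astrocytes around a spinal cord injury (SCI) was measured in 8 of the 117 libraries of the series, the 4 astrocyte libraries at 42 d and the 4 at 70 d after SCI. Members were taken by their titles, and no measured value was used to choose them. All 8 came from young adult female Aldh1l1-CreERT2-RiboTag mice with a complete crush of the thoracic cord, 1 mouse per library, and the mice at 70 d were other animals than those at 42 d. In these mice Cre, driven by the Aldh1l1 promoter and switched on by tamoxifen, puts a hemagglutinin tag on the ribosomal protein Rpl22, and an antibody then pulls tagged ribosomes with their mRNA from the tissue. A cell that turned on Aldh1l1 only after tamoxifen had cleared is not tagged, and RNA of other cells can stick to the beads. The RNA left over gave a flow-through library of the same mouse, and 4 such libraries per time were used beside the astrocyte ones. The tissue was a block of cord reaching 1 mm to each side of the lesion center, so lesion core, border and nearby cord are mixed. The same fit held uninjured mice of this line and mice at 2, 5, 14 and 28 d. Batch or run of the libraries was not given in the sources used here.

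Astrocytes around a lesion become reactive, raise intermediate filaments and matrix receptors, and form a border between inflamed tissue and neural tissue. The lysosome is the organelle in which a cell degrades what it has taken up, and macrophages and microglia, which clear myelin and dead cells from a lesion, are rich in it. The respiratory chain makes ATP in mitochondria, and most of its subunits are encoded in the nucleus, with a few in the mitochondrial genome. The step from 42 to 70 d asks what still moves in astrocytes after the border has formed.

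Astrocyte libraries held 74300399 to 81749957 counts on genes at 42 d and 80320133 to 105786460 at 70 d, a difference that missed the threshold (two-sided exact permutation p = 0.0571, smallest possible 0.0286). Markers of astrocytes were high at both times. Gfap, the astrocyte intermediate filament, was at 30034, 31758, 32260 and 31178 CPM at 42 d and 34290, 30813, 35613 and 33621 CPM at 70 d, with overlapping groups. Sox9, a transcription factor of astrocytes, and Aldh1l1, the gene whose promoter drives Cre, had log2 fold changes of 0.02 and -0.11. The glutamate transporters Slc1a2 and Slc1a3 had -0.07 and -0.40 (adjusted p = 0.0311 for the latter, edgeR), and the glycolytic enzyme Aldoc had 0.20. None of these 6 passed the test, while Aqp4, the water channel of astrocyte endfeet, fell (log2 fold change -0.78 ± 0.194 (SE), adjusted p = 0.0047) and was the 1 of 12 astrocyte markers on the list to pass. The summed level of 12 astrocyte markers ran from 48823 to 54146 CPM at 42 d and from 51129 to 54348 CPM at 70 d in astrocyte libraries, and the median astrocyte marker had a log2 ratio of 3.67 over flow-through.

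Between 42 and 70 d, 2293 of 18205 genes tested (12.6%) passed FDR under 0.01 in edgeR's quasi-likelihood test with all 7 groups of the female time course fitted together. Of these, 936 (5.14%) were higher and 1357 (7.45%) lower at 70 d, and 387 and 685 changed by at least 1.5-fold. With upper-quartile scaling in place of TMM the split was 1202 higher and 1100 lower. This count rests on the spread of the other groups. The median SD of log2 CPM was 0.187 among mice at 42 d and 0.208 at 70 d, against 0.123 to 0.159 in the other 5 groups. When the 42 and 70 d libraries were fitted alone, 158 of 16692 genes passed (0.947%), 36 higher and 122 lower, 154 of which had also passed in the fit of all groups. In that smaller fit 4707 genes had an unadjusted p under 0.05. Groups did not overlap for 3121 genes (17.1% of those tested), and for 1867 of the genes called. The step before, from 28 to 42 d, gave 149 higher and 155 lower genes (1.67% together) in the same fit, and both steps share the 42 d libraries. The change also moved with gene length and GC content, and a fit with offsets for both, chosen after seeing the data and described below, called 1133 genes. A gene is written below as having risen or fallen where it passed in the fit of all groups, and the adjusted p with the 42 and 70 d libraries alone is given where it also passed there.

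**Figure D1:**
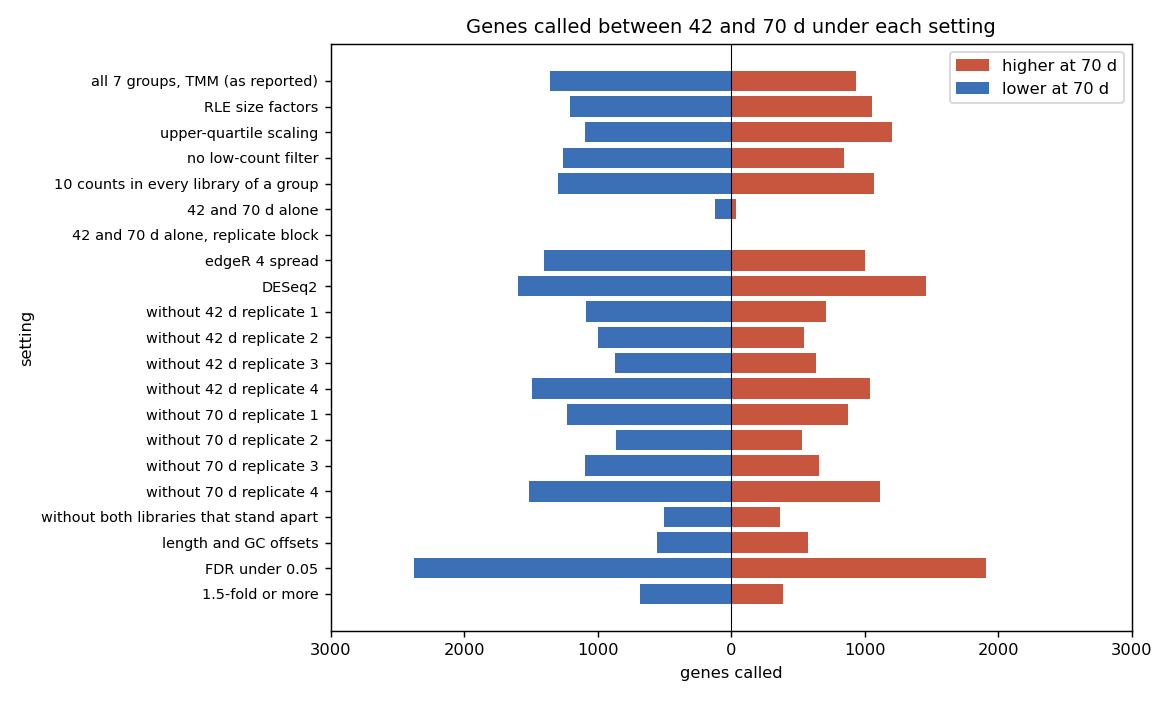
Genes called higher (red, right) and lower (blue, left) at 70 d, counted under each setting on the vertical axis, with the number of genes on the horizontal axis. The count falls from 2293 to 158 when the 42 and 70 d libraries are fitted alone, and to 1391 without 70 d replicate 2.

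Lysosomal genes were among those that fell. Of 35 lysosomal enzymes and membrane proteins tested, 16 fell (45.7% against 7.45% of all genes) and none rose, with a median log2 fold change of -0.52 against 0.01 over all genes. With offsets 14 fell. The count was 10 to 20 when 1 library was left out, with 10 the value without 42 d replicate 3. It was 3 without both that library and 70 d replicate 2, a setting chosen after seeing the data, and 2 with the 42 and 70 d libraries alone. Lamp2, a membrane protein of lysosomes, was at 346, 395, 352 and 304.3 CPM at 42 d and 168, 113, 151 and 210.2 CPM at 70 d. All mice at 70 d were below all mice at 42 d (log2 fold change -1.12 ± 0.135 (SE), adjusted p = 3.5e-06; 0.00587 with these libraries alone). Its level was 186 CPM in uninjured mice and 281 CPM at 28 d. Asah1, the acid ceramidase, was at 132, 117, 141 and 84.3 CPM at 42 d and 56.6, 43.1, 61.1 and 70.8 CPM at 70 d, again with no overlap (log2 fold change -1.04 ± 0.14 (SE), adjusted p = 1.3e-05; 0.00971 alone). Lipa, which frees cholesterol from esters, had log2 fold change -1.30 ± 0.242 (SE), adjusted p = 4.7e-04. Lamp1, a second membrane protein, had -0.28. The proteases Ctsb, Ctsl and Ctsd fell as well, Ctsb and Ctsl by 0.66 and 0.57 on the log2 scale, and Ctsl lost its call with offsets. Ctsd was at 4599, 3225, 6372 and 3432 CPM at 42 d and 1534, 1346, 3261 and 2657 CPM at 70 d, with groups that overlapped at a single mouse each. Ctsb was among the most counted genes, at 5301, 4230, 6114 and 4689 CPM at 42 d and 2700, 2294, 4009 and 3881 CPM at 70 d. Tfeb, a transcription factor that drives lysosomal genes, had 0.08 and did not pass.

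The promoters of lysosomal genes that fell are shown for the letters of the E-box, CACGTG, to which Tfeb and related factors are known to bind. RefSeq promoters of GRCm38.p6, 250 bases before to 50 after the start, were given for 11 of the 16 genes. The letters, the same on both strands, were in 4 of these 11 promoters and in 9.37% of the 13590 promoters of all genes tested. Promoters of lysosomal genes that did not fall were not counted apart. These counts therefore cannot tell lysosomal genes that fell from lysosomal genes as a class. They were in 2 of 6 promoters of endoplasmic reticulum genes that fell (Calr and Dnajb9), in 3 of 27 of respiratory chain genes that rose and in 0 of 15 of ribosomal protein genes that rose. The inverted CCAAT box, ATTGG on either strand, was in all 6 of those endoplasmic reticulum promoters and in 38.4% of all promoters. These 2 of 12 motifs searched were picked after their counts were seen, and a match says only that the letters are there. Capitals mark each E-box. The promoter of Lamp1, with 4 copies, is at chr8:13158911-13159210 on the plus strand, that of Ctsd, with 2, at chr7:142387778-142388077 on the minus strand and that of Ctsl, with 1, at chr13:64370471-64370770 on the minus strand.
Lamp1: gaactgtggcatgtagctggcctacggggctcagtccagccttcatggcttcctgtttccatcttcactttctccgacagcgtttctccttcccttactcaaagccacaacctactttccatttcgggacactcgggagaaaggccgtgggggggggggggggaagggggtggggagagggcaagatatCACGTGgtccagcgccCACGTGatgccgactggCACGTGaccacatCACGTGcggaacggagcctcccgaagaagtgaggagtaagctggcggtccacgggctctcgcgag
Ctsd: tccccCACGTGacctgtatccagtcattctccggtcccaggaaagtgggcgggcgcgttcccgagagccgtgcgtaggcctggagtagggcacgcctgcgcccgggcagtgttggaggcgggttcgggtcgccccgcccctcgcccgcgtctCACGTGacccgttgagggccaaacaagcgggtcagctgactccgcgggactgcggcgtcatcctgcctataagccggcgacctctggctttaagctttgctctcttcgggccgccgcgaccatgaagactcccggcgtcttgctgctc
Ctsl: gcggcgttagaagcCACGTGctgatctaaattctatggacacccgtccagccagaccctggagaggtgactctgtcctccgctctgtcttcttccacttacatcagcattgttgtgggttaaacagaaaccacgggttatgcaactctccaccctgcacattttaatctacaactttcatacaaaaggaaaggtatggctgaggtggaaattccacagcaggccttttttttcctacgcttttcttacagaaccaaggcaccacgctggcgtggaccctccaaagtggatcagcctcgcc

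Genes of macrophages and microglia moved in the same direction as the lysosomal ones. Of 16 markers of all myeloid cells, 4 fell (Cd53, Ptprc, Ctss and Itgam, 25% against 7.45% of all genes) and none rose, with a median of -0.86, and 15 of the 16 lay below 0. The count that fell was 3 to 10 when 1 library was left out, with 10 the value without 70 d replicate 3, and with the 42 and 70 d libraries alone Ptprc fell (adjusted p = 0.00852). Of 9 microglia markers 4 fell (median -0.86), and of 12 markers of monocyte-derived macrophages 2 fell (median -1.02). Leaving out 1 library gave 0 to 7 of the latter, with 0 without 42 d replicate 1, 42 d replicate 3 or 70 d replicate 2, and 7 without 70 d replicate 3. With offsets 3 of the 16 myeloid, 1 of the 9 microglia and 1 of the 12 macrophage markers fell. Cd53, a membrane protein of leukocytes, was at 76.9, 52.4, 96.7 and 40.3 CPM at 42 d and 13, 7.28, 23.9 and 27.4 CPM at 70 d (log2 fold change -1.89 ± 0.348 (SE), adjusted p = 4.4e-04). Ctss, a lysosomal protease of antigen-presenting cells, was at 1693, 833, 1860 and 995 CPM at 42 d and 322.01, 306, 789 and 614 CPM at 70 d (log2 fold change -1.41 ± 0.282 (SE), adjusted p = 9.1e-04). For both genes the groups did not overlap, and 42 d replicates 1 and 3 were the highest. The summed level of the myeloid list ran from 2663 to 5715 CPM at 42 d and from 1257 to 3357 CPM at 70 d, so the sums overlapped (two-sided exact permutation p = 0.114, adjusted p = 0.218 over 21 values compared). The sum of the microglia markers did not overlap, 441.9 to 695 against 258 to 404.4 CPM (exact permutation p = 0.0286, adjusted 0.150). Ctss and Cd53 were at 8.96 and 1.19 CPM in uninjured mice. The median log2 ratio in astrocyte libraries over flow-through was -1.37 for the myeloid list and -1.99 for the microglia markers. For the markers of monocyte-derived macrophages it was 0.025, so these were not lower in the astrocyte libraries as a list. Of the 35 lysosomal genes 4 are also on a myeloid list, among them Ctss, Cd68 and Gpnmb, and 2 of these 4 are among the 16 that fell. The part of myeloid RNA in the fall of lysosomal genes was not tested. In these bulk libraries, fewer cells of a type and less RNA per cell cannot be told apart.

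Among genes without overlap and with at least 1 CPM at 42 d, the largest falls were in Ugt1a7c, Tlr8, Cd28, Mcoln3, Kynu, St8sia4, Rnf128, Galnt3, Bc1 and Cd53, with log2 fold changes from -2.74 to -1.89. Tlr8 is a receptor for single-stranded RNA in endosomes of myeloid cells, Cd28 a costimulatory receptor of T cells, and Mcoln3 an ion channel of endosomes and lysosomes. Mcoln3 was at 14.1, 7.86, 17.2 and 7.32 CPM at 42 d and 0.931, 0.636, 4.61 and 2.84 CPM at 70 d and at 11.3 CPM at 28 d. Ugt1a7c shares exons with other genes of the Ugt1a cluster, so its counts are uncertain. Bc1, a short noncoding RNA of neurons at chromosome 7, 144914470 to 144914623 (GRCm38, plus strand), was at 26.4, 25, 37 and 34.7 CPM at 42 d and 6.78, 10.1, 8.94 and 6.08 CPM at 70 d (log2 fold change -1.95 ± 0.201 (SE), adjusted p = 2.0e-06; 0.00544 alone). It stood at 23.4 CPM in uninjured mice and 6.11 CPM at 28 d. In flow-through libraries Bc1 had a mean of 3569 CPM at 42 d and 984 CPM at 70 d (log2 fold change -1.86, adjusted p = 0.00671, edgeR). Its log2 ratio in astrocyte libraries over flow-through was -6.54, so most of this RNA was in the flow-through. Sgk1, a kinase induced by glucocorticoids, was at 69, 63.3, 93 and 54.6 CPM at 42 d and 19.1, 13.7, 25.6 and 26.8 CPM at 70 d (log2 fold change -1.72 ± 0.257 (SE), adjusted p = 6.0e-05; 0.00587 alone). It was the 1 member of the 19 glucocorticoid response genes that changed (5.26% against 7.45% of all genes that fell). Its log2 ratio in astrocyte libraries over flow-through was -1.33, and in flow-through its change was -0.98 and did not pass (adjusted p = 0.0251, edgeR).

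**Figure D2:**
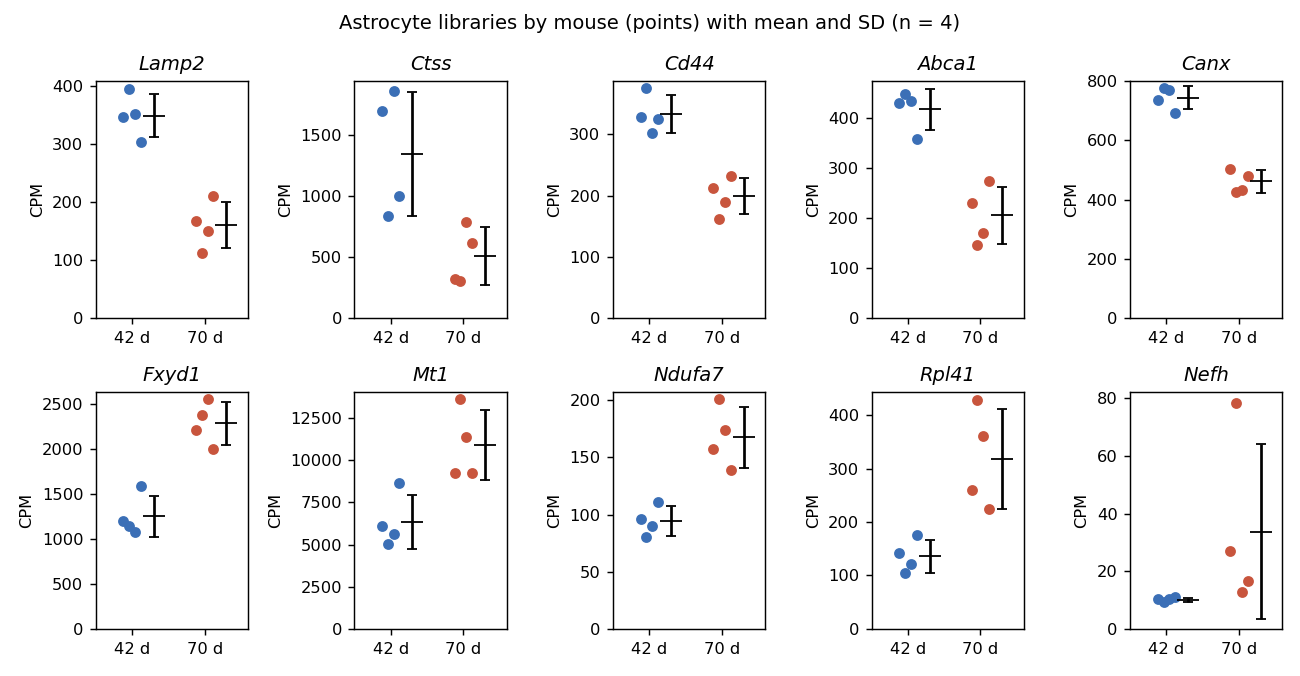
CPM of 10 genes (vertical axes, from 0) in the 4 mice at 42 d (blue) and the 4 at 70 d (red), with mean and SD. Lamp2, Ctss, Cd44, Abca1 and Canx are lower and Fxyd1, Mt1, Ndufa7, Rpl41 and Nefh higher at 70 d with no overlap, and 1 mouse carries most of the mean of Nefh.

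Single receptors and matrix genes fell, while reactivity and axon guidance genes as lists were called about as often as all genes. Of 35 reactivity genes 3 fell (8.57% against 7.45% of all genes) and 1 rose (2.86% against 5.14%), with a median of -0.01. Cd44, the hyaluronan receptor, was at 329, 376, 302 and 325 CPM at 42 d and 213, 163, 189.7 and 232 CPM at 70 d (log2 fold change -0.74 ± 0.104 (SE), adjusted p = 1.9e-05; 0.00921 alone), above its 87 CPM in uninjured mice at both times. Emp1, a membrane protein, had log2 fold change -0.87 ± 0.125 (SE), adjusted p = 2.4e-05, and Osmr, the receptor of oncostatin M, had -0.56 and lost its call with offsets. Cryab, a small heat shock protein, rose (log2 fold change 0.49 ± 0.118 (SE), adjusted p = 0.00329), but lost its call with offsets and without 70 d replicate 2, 42 d replicate 2 or 42 d replicate 3. Vim and Nes, intermediate filaments, had -0.01 and 0.01, and Serpina3n, a protease inhibitor, had -0.75, and none of these passed. Of 43 cytokines and cytokine receptors, 5 fell (11.6% against 7.45% of all genes) and none rose (median -0.42). Leaving out 1 library gave 3 to 9, with 3 without 42 d replicate 3, 70 d replicate 1 or 70 d replicate 2 and 9 without 42 d replicate 4, and offsets gave 3. Tgfbr1, a receptor of TGF-beta, was at 46.7, 50.5, 64.4 and 38.5 CPM at 42 d and 15.6, 9.19, 20.8 and 22.8 CPM at 70 d (log2 fold change -1.55 ± 0.216 (SE), adjusted p = 2.4e-05; 0.00926 alone). Tgfbr2 had -1.10, but lost its call in 6 of the 8 fits that left out 1 library. The integrins Itgb1 and Itgav fell by 0.75 and 0.90 on the log2 scale, and of 32 integrins and cadherins 4 fell (12.5%) and none rose (median -0.34). Leaving out 1 library gave 2 to 8, with 2 without 42 d replicate 3 or 70 d replicate 2 and 8 without 42 d replicate 4. Of 71 axon guidance genes 5 fell (7.04% against 7.45% of all genes) and 1 rose (1.41% against 5.14%), and without 70 d replicate 2 only 2 fell. Those that fell include Nrp1, a semaphorin and VEGF coreceptor (-0.65), Ephb2 (-0.91), the ligand Sema3a (-0.82) and Robo1 (-0.62), of which Sema3a lost its call with offsets. Of 44 collagens 2 fell (4.55%, none without 70 d replicate 2), and of 25 chondroitin sulfate proteoglycan genes 3 fell (12.0%, 1 with offsets). Of 22 laminin and basement membrane genes none passed in the edgeR fit of all groups (5 at an unadjusted p under 0.05). With offsets 1 of the 22 fell, and DESeq2 called 1.

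Some genes of lipid efflux and of the endoplasmic reticulum also fell. Of 20 lipid genes 4 fell (20% against 7.45% of all genes) and none rose (median -0.33), and 4 fell with offsets. Abca1, which exports cholesterol, was at 429.8, 449, 433.99 and 357 CPM at 42 d and 230.0, 147, 171 and 274 CPM at 70 d (log2 fold change -1.02 ± 0.185 (SE), adjusted p = 2.9e-04; 0.00971 alone). Its level was 57.8 CPM in uninjured mice and 277 CPM at 28 d. Soat1, which esterifies cholesterol, had log2 fold change -0.75 ± 0.0918 (SE), adjusted p = 4.1e-06. Cd36, a scavenger receptor of macrophages, had -1.63 and kept its call in 4 of the 8 fits that left out 1 library, but not with offsets. Of 24 genes of endoplasmic reticulum stress and folding, 7 fell (29.2% against 7.45% of all genes) and none rose (median -0.21). With offsets 3 fell (median -0.11), and leaving out 1 library gave 4 to 7, with 4 without 42 d replicate 2 or 70 d replicate 3. Canx, the chaperone calnexin, was at 737, 776, 772 and 694 CPM at 42 d and 505, 426, 434.03 and 482 CPM at 70 d (log2 fold change -0.69 ± 0.0702 (SE), adjusted p = 2.0e-06; 0.00587 alone), and with offsets its log2 fold change was -0.33. Its level was 728 CPM in uninjured mice and 594 CPM at 28 d, and it rose from 28 to 42 d (log2 fold change 0.326, adjusted p = 0.00616, edgeR). Calr and Edem1 had -0.60 and -0.69, and Edem1 lost its call with offsets. Ddit3 and Atf4, transcription factors of the stress response, had 0.49 and 0.22 and did not pass. Slc16a1, a lactate transporter, was at 705, 579.8, 617 and 717 CPM at 42 d and 394, 398, 401.01 and 438.9 CPM at 70 d (log2 fold change -0.68 ± 0.0902 (SE), adjusted p = 1.0e-05; 0.00679 alone). With offsets its log2 fold change was -0.36 and its call was lost (adjusted p = 0.0105).

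Many subunits of the respiratory chain and some ribosomal proteins rose, and most of these rises were lost with offsets for gene length and GC content. Of 73 nuclear-encoded respiratory chain subunits, 29 rose (39.7% against 5.14% of all genes) and 1 (Sdhd) fell, with a median of 0.33 and 68 of 73 above 0. Ndufa7, a subunit of complex I, was at 96.4, 80.5, 89.9 and 111 CPM at 42 d and 157, 201, 174 and 139 CPM at 70 d (log2 fold change 0.83 ± 0.111 (SE), adjusted p = 1.2e-05; 0.00883 alone). Ndufa3, Ndufa11 and Ndufs7 had 0.89, 0.64 and 0.73. Of 84 cytosolic ribosomal protein genes, 22 rose (26.2%) and 2 (Rpl15 and Rpl10) fell, with a median of 0.31. With offsets 11 subunits rose and 3 fell (median 0.07), and 7 ribosomal proteins rose and 7 fell (median 0.01). Rpl41 was at 142, 104, 121 and 176 CPM at 42 d and 259, 428, 361 and 225 CPM at 70 d (log2 fold change 1.23 ± 0.176 (SE), adjusted p = 2.7e-05; 0.00984 alone). Rps27 had 0.63 and lost its call with offsets. Ribosomal protein genes have many processed copies in the genome, so their counts are uncertain. Without 70 d replicate 2, 13 subunits and 8 ribosomal proteins rose, without 42 d replicate 2 they were 12 and 8, and without 70 d replicate 3 they were 17 and 9. With the 42 and 70 d libraries alone, 1 of each rose. Of 15 mitochondrially encoded genes 5 fell (33.3% against 7.45% of all genes) and none rose (median -1.09), and 3 to 9 fell when 1 library was left out, with 3 without 42 d replicate 3 or 70 d replicate 3 and 9 without 42 d replicate 4. COX1, a subunit of complex IV, was at 409.9, 504, 548 and 223 CPM at 42 d and 183, 75.6, 158 and 234 CPM at 70 d, with groups that overlapped (log2 fold change -1.37 ± 0.273 (SE), adjusted p = 8.6e-04), while COX3 was at 0.988, 1.27, 1.74 and 0.64 CPM at 42 d and 0.374, 0.19, 0.249 and 0.442 CPM at 70 d. Copies of mitochondrial DNA in the nuclear genome can take such reads, so these counts are uncertain. The median log2 ratio of these genes in astrocyte libraries over flow-through was -4.60, so most of this RNA was in the flow-through. The part of RNA not held by tagged ribosomes in their fall was not tested.

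Of 18 genes of potassium and water transport and gap junctions, 1 rose (5.56% against 5.14% of all genes). Another, Aqp4, fell (5.56% against 7.45% of all genes), and the median was 0.04. The 1 that rose was Fxyd1, a regulator of the sodium-potassium pump. It was at 1200, 1148, 1082 and 1586 CPM at 42 d and 2211, 2378, 2562 and 2000 CPM at 70 d (log2 fold change 0.87 ± 0.146 (SE), adjusted p = 1.2e-04; 0.00712 alone), after 609 CPM in uninjured mice and 1826 CPM at 28 d. Aqp4 was at 3363, 4955, 3769 and 2626 CPM at 42 d and 2569, 1410, 1948 and 2663 CPM at 70 d. Its groups overlapped by a small margin, and its call was lost without replicate 2 or 3 of either time and with offsets for gene length and GC content. Of 27 metallothionein and antioxidant genes 5 rose (18.5% against 5.14% of all genes) and 2 fell (median -0.01), and with offsets 2 rose and 1 fell. Mt1, a zinc-binding metallothionein, was at 6114, 5031, 5607 and 8670 CPM at 42 d and 9263, 13619, 11363 and 9268 CPM at 70 d (log2 fold change 0.78 ± 0.155 (SE), adjusted p = 7.1e-04). Mt3 had 0.73 with overlapping groups, and Gstm5 and Gsta4, glutathione transferases, had 0.64 and 0.44. With offsets Mt3 went to 0.14 (adjusted p = 0.325) and Gsta4 to 0.24 (adjusted p = 0.0378), and both lost their calls. Sfrp5, a secreted inhibitor of Wnt signals, was at 122, 129, 129.9 and 121 CPM at 42 d and 188, 187, 189.6 and 219 CPM at 70 d (log2 fold change 0.64 ± 0.138 (SE), adjusted p = 0.00137; 0.00587 alone), and lost its call with offsets (0.38, adjusted p = 0.0623). Among the most counted genes, Itm2b, a membrane protein, fell by 0.48 and Aldoa, a glycolytic enzyme, rose by 0.24 on the log2 scale, the latter with a call in 3 of the 8 fits that left out 1 library and none with offsets. Of 44 interferon-stimulated genes none passed in edgeR or DESeq2 and 8 had an unadjusted p under 0.05 in edgeR, with a median of 0.23, and their median from 28 to 42 d was -0.88.

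**Figure D3:**
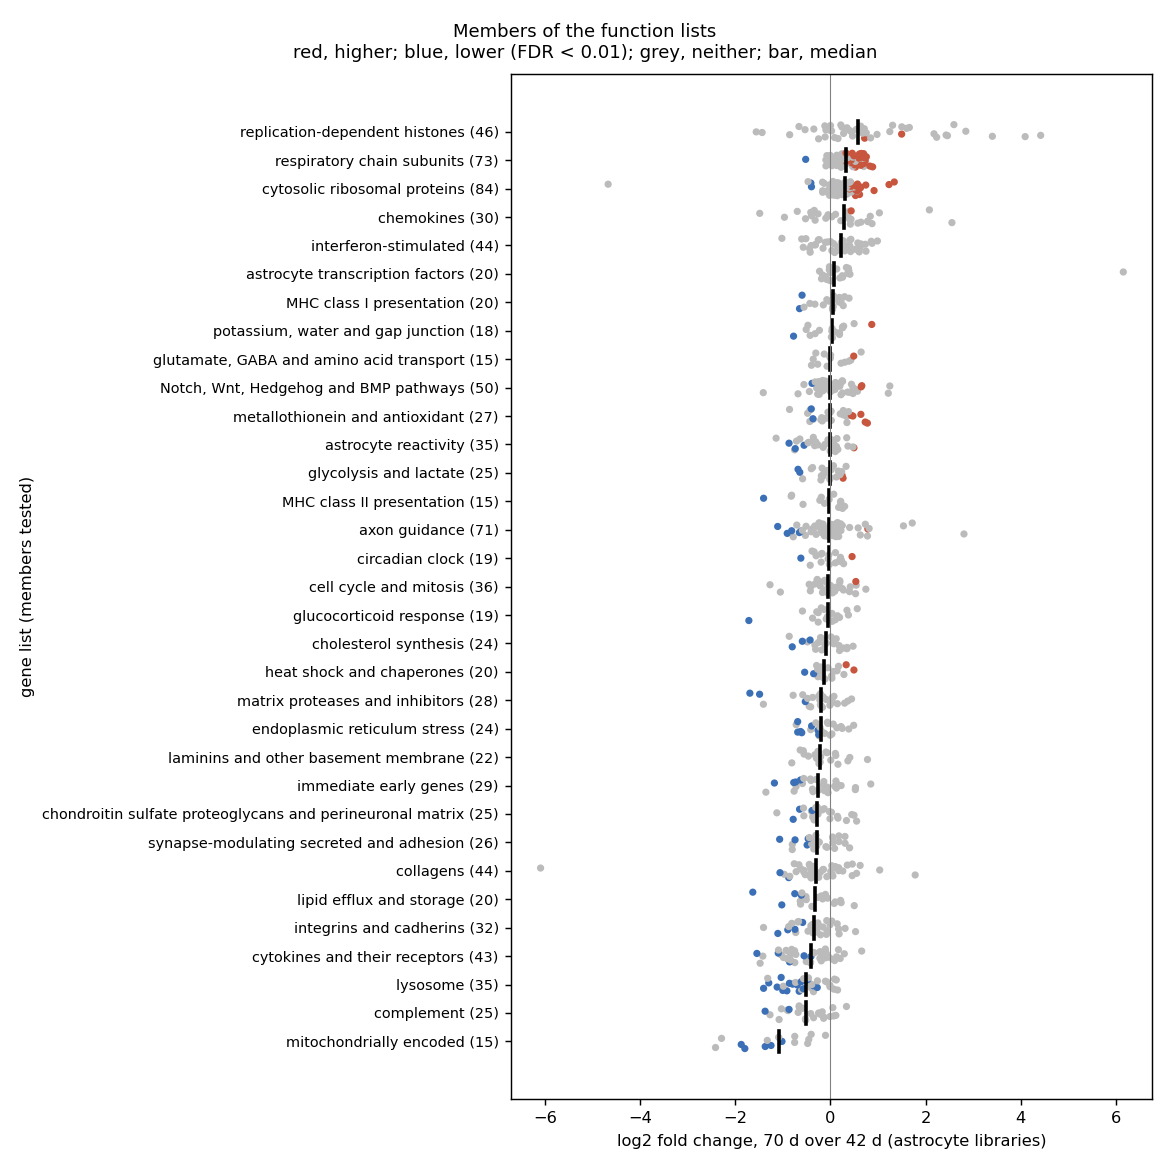
Log2 fold change of each member tested (horizontal axis) in the function lists (vertical axis, with the number tested), with a bar at the list's median. Respiratory chain subunits (29 higher) and ribosomal proteins (22 higher) lie to the right, and lysosomal genes (16 lower) and the mitochondrially encoded genes to the left.

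Neuronal genes were among the largest rises, and 1 library carried much of them. Among genes without overlap and with at least 1 CPM at 70 d, the 10 largest rises were in Ppp1r1c, Prph, Mlip, Pcp4, Sult4a1, Saa1, Snhg7, Nefh, Ttc9b and A230083G16Rik. Prph, a neurofilament protein of motor and sensory axons, was at 1.51, 1.47, 1.23 and 0.81 CPM at 42 d and 2.81, 41.1, 2.1 and 1.96 CPM at 70 d, and Nefh, the heavy neurofilament, was at 10.4, 9.24, 10.3 and 10.9 CPM at 42 d and 26.9, 78.5, 12.9 and 16.7 CPM at 70 d. Replicate 2 at 70 d was the highest for both, by far for Prph. Without it the log2 fold change of Prph went from 3.25 to 0.86 and lost its call (adjusted p = 0.0703), and that of Nefh went from 1.73 to 0.89 and kept it (adjusted p = 0.00395). Of 11 neuron markers 3 rose (Nefl, Nefm and Nefh, 27.3% against 5.14% of all genes), with a median of 1.16. Leaving out 1 library gave 1 to 7 (1 without 70 d replicate 2 and 1 without each 42 d library in turn, 7 without 70 d replicate 3), and with the 42 and 70 d libraries alone none passed. Their summed level was 109.9 to 119 CPM at 42 d and 195, 480, 112 and 129 CPM in the 4 mice at 70 d, and in flow-through libraries of the same 4 mice it was 4120, 6956, 2025 and 2772 CPM, highest in the same mouse. Ppp1r1c had 1, 2, 0 and 0 counts at 42 d and 18, 347, 4 and 13 at 70 d, a ratio of 107 (95% interval 36.2 to 519.9, counting error only). It lost its call without 70 d replicate 2, without 42 d replicate 1 or 3 and with DESeq2, which also gave no call for Prph. Mlip kept its call without 70 d replicate 2 and with the 42 and 70 d libraries alone (adjusted p = 0.00926), and was at 0.924, 0.796, 0.455 and 0.839 CPM at 42 d and 5.17, 4.35, 2.86 and 1.8 CPM at 70 d. The part of neuronal RNA in these rises was not tested.

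**Figure D4:**
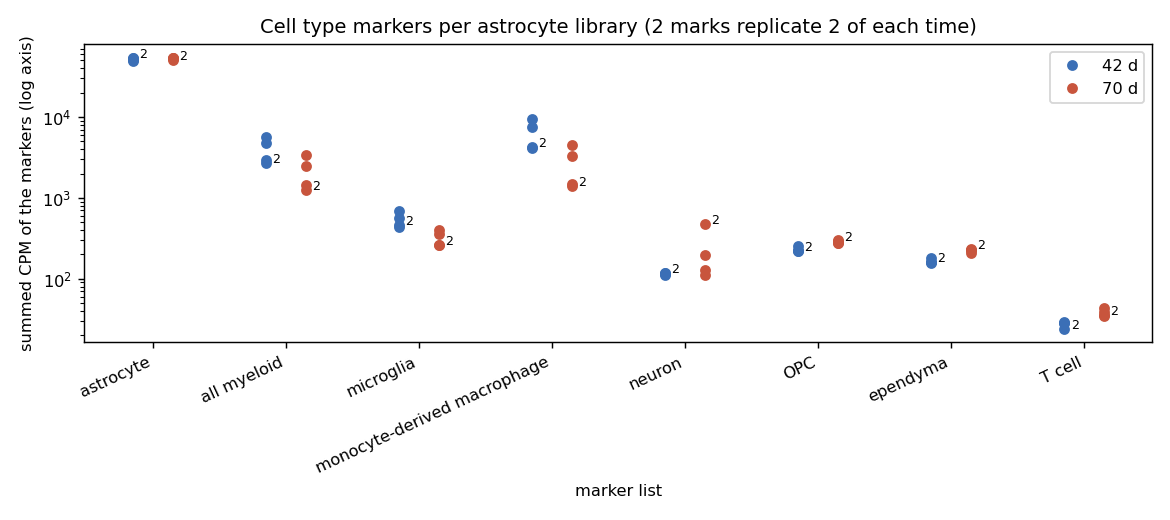
Summed CPM of cell type markers (log axis) in each astrocyte library at 42 d (blue) and 70 d (red), with replicate 2 of each time marked. Astrocyte sums overlap, as do those of all myeloid markers, the microglia sums at 70 d lie below those at 42 d, and the neuron sum of 70 d replicate 2 stands at 480 CPM.

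The trend with gene length was as follows. Genes with exons of up to 500 bases had a median log2 fold change of 0.45, those of 500 to 1000 bases 0.35, and those of 4000 to 8000 bases -0.09. Of the 1027 genes of 500 to 1000 bases 14.5% rose and 0.682% fell, and of the 5122 genes of 4000 to 8000 bases 2.52% rose and 12.4% fell. Over 17547 genes, Spearman's rho of the change was -0.24 with exon length and 0.36 with GC content, as a description across genes, which are not independent. Relative to long genes, short genes were highest in 70 d replicates 2 and 3 and lowest in 42 d replicate 2, and the groups overlapped (exact permutation p = 0.0857, adjusted 0.218). Ribosomal proteins (median exon length 827 bases) and respiratory chain subunits (998 bases) are short, and lysosomal genes have a median of 2731 bases. With offsets for length and GC content, chosen after this trend was seen, 1133 genes passed, 576 higher and 557 lower. The lysosomal median was then -0.52. Mitochondrial genes, of which the protein-coding ones had no exon length in the annotation and so no offset, had 5 that fell (median -1.09). The part of length and GC content in these changes was not tested further.

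**Figure D5:**
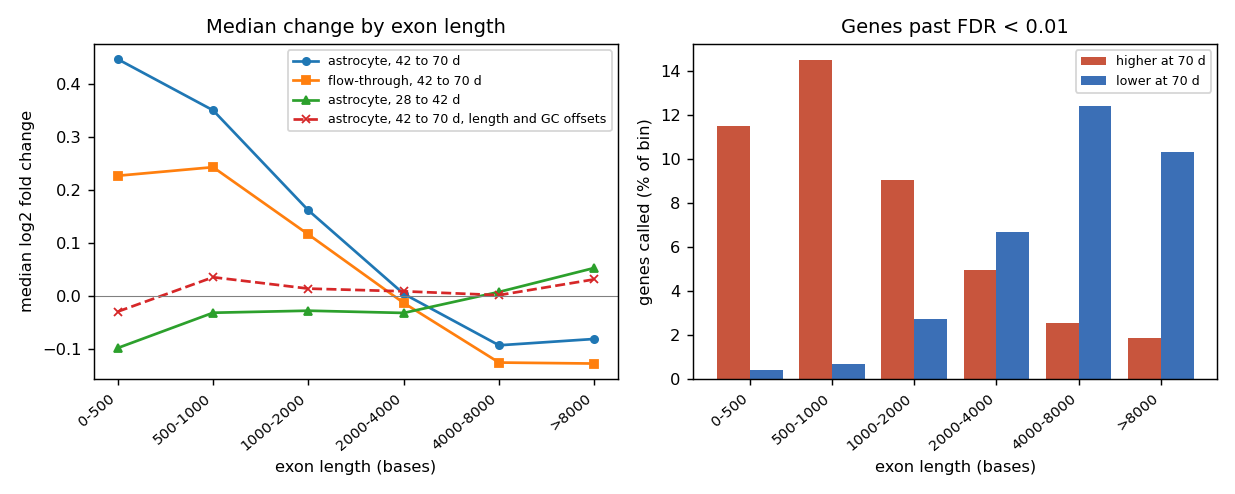
Left, median log2 fold change (vertical axis) by exon length in bases (horizontal axis) for astrocyte libraries, flow-through libraries, the step before and the fit with offsets; right, percent of genes called. From the shortest genes to those of 4000 to 8000 bases the astrocyte median goes from 0.45 to -0.09, and the share called lower from 0.41% to 12.4%.

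Flow-through libraries of the same mice gave fewer calls. In their own fit 402 of 19207 genes were higher (2.09%) and 346 lower (1.8%) at 70 d, and 5 genes passed with the 42 and 70 d libraries alone. A test of the difference between the changes in astrocyte and flow-through libraries gave 0 of 18245 genes (0%) in edgeR, with 1042 at an unadjusted p under 0.05, and 0 with the mouse as a block. Respiratory chain subunits had a median of 0.40 in flow-through (13 rose), lysosomal genes -0.38 (3 fell) and myeloid markers -0.34 (2 fell). Abca1, Lamp2 and Canx fell in flow-through too (-1.57, -0.91 and -0.57). Fxyd1 had 0.52 there and did not pass (adjusted p = 0.147). Of 2636 genes enriched at least 2-fold in the astrocyte libraries over flow-through, 100 rose (3.79%) and 259 fell (9.83%), and of 3249 depleted at least 2-fold, 179 rose (5.51%) and 81 fell (2.49%).

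The state of a gene at 28 d, in libraries that are neither at 42 nor at 70 d, was set beside its later change. Of 4147 genes higher at 28 d than in uninjured mice, 10.4% fell and 3.11% rose from 42 to 70 d, against 7.45% and 5.14% over all genes. Of 3486 genes lower at 28 d, 307 rose (8.81%) and 232 fell (6.66%). The respiratory chain median was 0.05 from 28 to 42 d, the lysosomal one -0.01 and the myeloid one 0.11.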

How the data were processed

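The authors deposited 1 file of raw read counts per library, not normalized, for 27179 Entrez gene identifiers of the mouse. Before that, the authors joined lanes, ran Trimmomatic, aligned with HISAT2 (build mm10) and counted with featureCounts at default settings, which do not use strand, so that overlapping and antisense genes cannot be told apart. RefSeq named 25275 identifiers. Groups came from the titles. The 29 female astrocyte libraries of 7 groups were fitted together in R 4.3.3 with edgeR 4.0.16 (TMM, filterByExpr, glmQLFit with legacy=TRUE and robust=TRUE). The change from 42 to 70 d was tested with Benjamini-Hochberg adjustment at FDR under 0.01. Before that, the procedure was run on simulated data with known changes. Those data had the same spread of a gene in every group and no trend with gene length or GC content. That run therefore cannot show how unequal spread between groups or such a trend affects the calls. CPM are TMM-scaled, and list scores used a prior count of 2. Alternatives were DESeq2 1.42.0, other scalings, filters, thresholds and spread estimates, fits of 42 and 70 d alone, and each library left out. The members and lists were chosen with earlier results of these data known. Genes named were the 10 largest changes each way without overlap and at least 1 CPM in the higher group, the 6 most counted, up to 4 per list and 7 astrocyte markers (116 in all). Ctsd, Ctsl, Tfeb, Ptprc, Vim, Nes, Serpina3n, Ddit3, Atf4, Sdhd, Rpl10, Rpl15, Nefl, Nefm, Cd68, Gpnmb and Foxj1 were named after their values were seen. Replicate numbers do not pair mice across times (r of deviations -0.12 to 0.03). The number pairs the astrocyte and flow-through library of a mouse, as both come from 1 immunoprecipitation (r 0.08 to 0.35). The p-values rest on the spread between mice, which in the fit of all groups was estimated over all 7 groups. That spread was larger at 42 and 70 d (median SD 0.187 and 0.208) than in the other groups, so these p-values can understate it. Replicates of a group differed beyond sampling noise, so each counts as 1 sample. One flow-through library at 5 d has labels that differ on sex, and it entered the flow-through fit by its title. Some genes are not reported here. The 59 other files were not used.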

Additional observations from a re-analysis of the deposited data

Results flagged for a closer look

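A library far from the other 3 of its group in CPM was seen for 11 of the genes named, among 222 gene groups of 4 libraries examined. Chance gives about 1 in 20, and the number seen was close to that share. Replicate 2 at 70 d was the highest for Ppp1r1c (4.70 CPM), Prph (41.1 CPM) and Lamp1 (1440 CPM) and the lowest for Soat1 (71.6 CPM). Other libraries at 70 d stood apart for A230083G16Rik (replicate 3 highest, 1.98 CPM), Slc16a1 (replicate 4 highest, 438.9 CPM), Sfrp5 (replicate 4 highest, 219 CPM) and Slc1a2 (replicate 3 lowest, 3812 CPM). At 42 d, replicate 2 was the highest for Osmr (149 CPM) and Bmpr1a (223 CPM), and replicate 3 was the lowest for Mcm7 (11.5 CPM).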

How the results depend on the processing

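The 42 to 70 d count of 2293 genes (936 higher, 1357 lower) became 158 (36 and 122) with the 42 and 70 d libraries alone, and 0 (0 and 0) there with the replicate number as a block, where 3584 genes had an unadjusted p under 0.05; the numbers mark different mice, and no library correlated best with its own number. Leaving out 1 library gave 1391 to 2630 genes, 530 to 1112 higher and 861 to 1518 lower. The lowest counts were without 70 d replicate 2 (1391) and without 42 d replicate 3 (1507), and without both, chosen after seeing the data, 872 passed (364 higher, 508 lower). Length and GC offsets gave 1133 (576 and 557), FDR under 0.05 gave 4288 (1906 and 2382), and a fold of at least 1.5 gave 1072 (387 and 685). DESeq2 called 1462 higher. Upper-quartile scaling turned the split to 1202 higher and 1100 lower, with a median of 0.05 over all genes. In flow-through the count of 748 became 5 with 42 and 70 d alone, 0 with the replicate block, 265 to 746 without 1 library and 2084 at FDR under 0.05. The difference between astrocyte and flow-through gave 0 genes, 0 with the mouse as a replicate block and 0 to 1 without 1 mouse. No named gene changed sign with a call. Of 116 named genes, 34 lost their call without 70 d replicate 2, 42 under length and GC offsets and 89 with the 42 and 70 d libraries alone. The cause of these differences was not tested, beyond the fewer libraries in the smaller fits.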

Other observations

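Other function lists had few members past the test, against 5.14% higher and 7.45% lower over all genes, and several of their calls were lost in other fits. Of 29 immediate early genes 4 fell (13.8%) and none rose (median -0.25), and 2 fell without 70 d replicate 2. They include the phosphatases Dusp5 (-1.18) and Dusp6 (-0.77), which switch off MAP kinases, and the transcription factor Atf3 (-0.73). Leaving out 1 library in turn, Dusp5 kept its call in 3 of 8 fits, Atf3 in 4 and Dusp6 in 8. Of 26 secreted and adhesion genes that act on synapses 4 fell (15.4%, median -0.28), among them the engulfment receptors Mertk (-1.07) and Megf10 (-0.74). With length and GC offsets 2 fell and 1 rose, without Mertk, and without 70 d replicate 2 only 1 fell. Of 25 complement genes 2 fell (8.0%, median -0.52), C3ar1 (-1.37) and Itgam (-0.87), both also genes of myeloid cells. The count was 0 to 5 when 1 library was left out and 0 without 70 d replicate 2, and both genes lost their calls with offsets. Of 24 cholesterol synthesis genes 3 fell (median -0.10), Idi1 (-0.80), Hsd17b7 (-0.59) and Sc5d (-0.43), and none of them with offsets (list median -0.03). Of 28 matrix proteases and inhibitors 3 fell, among them Hpse, which cuts heparan sulfate (-1.69). Of 50 genes of the Notch, Wnt, Hedgehog and BMP pathways 2 rose (4.0%) and 1 fell (2.0%), none of them with offsets. Of 19 clock genes Nr1d2 fell (-0.62), but not with offsets. None of 20 astrocyte transcription factors passed in edgeR or DESeq2, and 3 had an unadjusted p under 0.05 in edgeR.

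None of 9 T cell markers passed in the edgeR fit of all groups or in DESeq2 (3 at an unadjusted p under 0.05 in that edgeR fit). All 9 lay above 0 (median 0.98), and 1 rose with the 42 and 70 d libraries alone. Their summed level was 24.2 to 29.2 CPM at 42 d and 35.1 to 43.9 CPM at 70 d, groups that did not overlap (exact permutation p = 0.0286, adjusted 0.150 over 21 values). Sums of oligodendrocyte progenitor markers (220 to 254 against 273 to 299 CPM) and of ependymal markers (158 to 182 against 207 to 231 CPM) did not overlap either, with the same p. Of the ependymal genes Foxj1, a transcription factor of motile cilia, rose (log2 fold change 0.39), but lost its call without 70 d replicate 2 and with offsets. Of 46 replication-dependent histone genes 2 rose (H2bc4 and H4c4, 4.35% against 5.14% of all genes), with a median of 0.58 that went to 0.04 with offsets. H4c4 lost its call with offsets (adjusted p = 0.128) and in 6 of the 8 fits that left out 1 library. These genes are short, with a median exon length of 487.5 bases. Of 36 cell cycle genes 1 rose (Mcm7, 0.53). Neutrophil markers summed to 178 to 568 CPM at 42 d and 192.6 to 668 CPM at 70 d.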
